A study of Mus musculus with 6 samples.

Results

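Pola1, Pola2, Prim1, Prim2, Pold1, Pole, Rpa1, Rpa2 and Rpa3 encode the enzymes that synthesise the 2 new DNA strands at a replication fork and the protein that coats the unwound template. These 9 genes were chosen by their symbols, and all 9 have a row among the 11108 genes of the expression table. RNA-seq libraries came from hematopoietic stem cells, the self-renewing cells at the head of the blood lineages, which were sorted from the bone marrow of Mcph1-/- and WT mice, with 3 libraries per genotype. The cells were lineage-negative, Sca-1+, c-kit+, CD34- and CD150+, untreated, and 200 of them were lysed per library for Smart-seq2, which makes full-length cDNA from a few cells. The labels give neither the age or strain of the mice nor the design of the Mcph1 allele, and whether each library came from its own animal is not stated. P-values therefore reflect the spread between libraries, which may be technical.

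DNA synthesis starts with the polymerase alpha-primase complex, in which primase lays down a short RNA and polymerase alpha extends it into a short stretch of DNA. Polymerase epsilon then copies the leading strand and polymerase delta the lagging strand, and the heterotrimer replication protein A (RPA) binds the single-stranded DNA that the helicase exposes. Most adult hematopoietic stem cells are quiescent, and transcripts of replication enzymes are known to accumulate when cells pass from G1 into S phase. MCPH1 is a regulator of chromosome condensation and of the DNA damage response.

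Values are normalised read counts, that is, gene read counts that the authors divided by 1 size factor per library. The totals were 9464810 to 10455908 reads in Mcph1-/- libraries and 8102605 to 8655123 reads in WT libraries, and reads were found for 10516 to 10777 genes in Mcph1-/- libraries and for 10209 to 10335 genes in WT libraries. Mcph1 itself was read in every library, at 427.8, 37.7 and 233.9 in Mcph1-/- replicates 1 to 3 and at 160.5, 341.0 and 34.4 in WT replicates 1 to 3. Reads summed over a whole gene cannot check a deletion of part of it, so each direction given here rests on the labels. Of the 13 stem cell markers looked up, 12 were in the table, and Kit, Ly6a (Sca-1), Hlf and Mecom had reads in all 6 libraries. Slamf1, the gene of the sorting marker CD150, had 0.893 in Mcph1-/- replicate 3, the value of 1 read, and 0 in WT replicate 1.

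No member of the group passed the threshold between Mcph1-/- and WT libraries. Of the 9 genes, 8 had a positive log2 fold change (Mcph1-/- over WT) and 1 a negative one, while 53.8% of all 10846 tested genes were positive. The median log2 fold change was 0.66 for the 9 genes and 0.08 for all tested genes. At an adjusted p under 0.05 (limma-trend on log2(value + 1), Benjamini-Hochberg over all tested genes), 0 of 9 members were called against 0.0369% of all tested genes, which is 4 genes. Named after their values were seen, these were the neutrophil markers S100a8, S100a9 and Ngp, which fell in Mcph1-/-, and the erythroid marker Car1, which rose. At an unadjusted p under 0.05, 1 member, Prim2, was higher, against 4.16% of all tested genes. By edgeR and DESeq2, 0 members passed at an adjusted or an unadjusted p under 0.05. For no member did all Mcph1-/- libraries lie above all WT libraries, which was so for 7.40% of all tested genes, or below them, which was so for 6.80%. A single library weighed on the median, which was 0.17 without WT replicate 3. In libraries made from pooled cells, fewer cells of a type and less RNA per cell cannot be told apart.

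**Figure D1:**
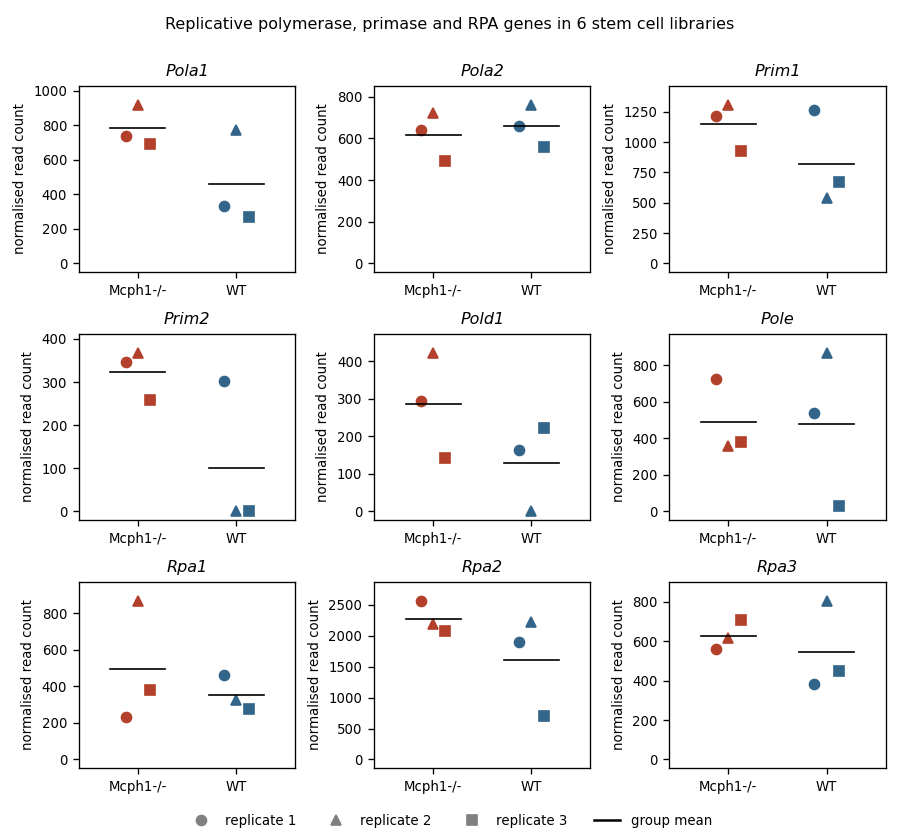
Normalised read count (vertical axis, from 0 in each panel) of the 9 genes in the Mcph1-/- libraries (left) and the WT libraries (right). Symbols stand for replicates and lines for group means (n = 3 each); the groups overlap in every panel, and Prim2 and Pold1 have WT points at or next to 0.

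Pola1 encodes the catalytic subunit of polymerase alpha, and Pola2 the B subunit of the complex. The Pola1 gene (ENSMUSG00000006678) lies on the minus strand of chromosome X from 93304767 to 93632155 in mm10. Its normalised read count was 740.7, 920.4 and 691.9 in Mcph1-/- replicates 1 to 3 and 330.8, 773.7 and 271.3 in WT replicates 1 to 3. WT replicate 2 lay within the range of the Mcph1-/- libraries, and WT replicates 1 and 3 lay below it. The means were 784 ± 120 in Mcph1-/- and 459 ± 274 in WT (SD, n = 3). The log2 fold change was 0.92 (SE 0.46; 95% interval -0.14 to 1.98; limma adjusted p = 0.662). Pola2 (ENSMUSG00000024833, chromosome 19, 5940542 to 5964202, minus strand) stood at 637.6, 720.2 and 492.8 in Mcph1-/- and at 660.4, 761.4 and 556.8 in WT. It was the steadiest of the 9 genes, with a within-genotype SD of 0.25 on the log2 scale against a median of 0.88 over all tested genes. Its log2 fold change was -0.10 (SE 0.33; limma adjusted p = 0.9499), and the interval of -0.86 to 0.66 corresponds to 0.550 to 1.58 times the WT level.

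Of the 7 matched promoters, Pola1 alone had any of the E2F sequences listed below upstream of its start, so its promoter is shown. E2F proteins are known regulators of S-phase genes, and shorter or other forms of their element were not searched. RefSeq promoter windows of 300 bases (250 before and 50 after the start, GRCm38.p6) were matched for 7 of the 9 genes. The sequence below covers the 150 bases before the start on chromosome X from 93632156 to 93632305, given 5′ to 3′ on the minus strand, with an E2F element (TTTGGCGC) and a CCAAT box, both on the opposite strand, in capitals.
Pola1: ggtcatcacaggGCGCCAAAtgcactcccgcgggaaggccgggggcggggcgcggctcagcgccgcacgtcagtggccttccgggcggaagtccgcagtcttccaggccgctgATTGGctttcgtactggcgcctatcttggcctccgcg
The E2F search used TTTGGCGC, TTTCCCGC, TTTCGCGC and TTTGCCGC on both strands, and 2.26% of the 32851 promoter windows held at least 1 of them. Of the 7 member windows, 2 did: in Pola1 the match began 138 bases before the start, and in Pold1 a TTTCCCGC on the opposite strand began 40 bases into the transcript. A match of letters is a description and not evidence of binding.

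Primase has a catalytic subunit, encoded by Prim1, and a larger regulatory subunit with an iron-sulphur cluster, encoded by Prim2. Prim1 (ENSMUSG00000025395, chromosome 10, 128015168 to 128030037, plus strand) stood at 1217, 1308 and 929 in Mcph1-/- and at 1266, 536 and 667 in WT. WT replicate 1 lay among the Mcph1-/- libraries and the other two WT libraries lay below them. The means were 1152 ± 198 in Mcph1-/- and 823 ± 389 in WT (SD, n = 3). The log2 fold change was 0.57 (SE 0.37; 95% interval -0.28 to 1.42; limma adjusted p = 0.700).

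Prim2 (ENSMUSG00000026134, chromosome 1, 33453810 to 33669795, minus strand) had the widest difference of the group. It stood at 345.7, 368.3 and 258.9 in Mcph1-/- replicates 1 to 3, or 379, 449 and 290 reads, and at 303.6, 1.03 and 0 in WT replicates 1 to 3, or 280, 1 and 0 reads. WT replicate 1 fell within the Mcph1-/- range, so the groups overlapped, while the other two WT libraries held next to no primase large-subunit reads. The count of 0 in WT replicate 3 allows a value of up to 3.04, the worth of 3 reads, and this limit covers counting error only. The ratio of the group means was 3.19 (Mcph1-/- over WT). The fitted log2 fold change of 5.24 (SE 2.18; unadjusted p = 0.042; limma adjusted p = 0.642) depends on how a value near 0 is treated: it was 2.93 with a pseudocount of 16, 1.70 by edgeR and 1.67 by DESeq2. None of these passed after adjustment (adjusted p = 0.468 to 0.9998 over all alternatives).

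Pold1 and Pole encode the catalytic subunits of polymerases delta and epsilon. Pold1 (ENSMUSG00000038644, chromosome 7, 44532746 to 44548849, minus strand) stood at 294.6, 423.3 and 143.7 in Mcph1-/- and at 162.7, 0 and 222.7 in WT. WT replicate 2 had no Pold1 read, which allows a value of up to 3.09, and the other two WT libraries lay within the Mcph1-/- range. The log2 fold change was 2.98 (SE 2.04; limma adjusted p = 0.706), but 0.46 without WT replicate 2, and the ratio of the group means was 2.24. Pole (ENSMUSG00000007080, chromosome 5, 110286306 to 110337474, plus strand) stood at 722.5, 357.7 and 377.7 in Mcph1-/- and at 537.9, 867.5 and 31.4 in WT. Its group means were almost equal, 486 ± 205 in Mcph1-/- and 479 ± 421 in WT (SD, n = 3). Its log2 fold change was 0.90 (SE 1.15; limma adjusted p = 0.840), but -0.57 without WT replicate 3, and it was 0.04 by edgeR and 0.02 by DESeq2. In its exons, 78 bases overlap the antisense gene Gm15792, and with no strand setting stated, reads of the pair cannot be told apart there.

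**Figure D2:**
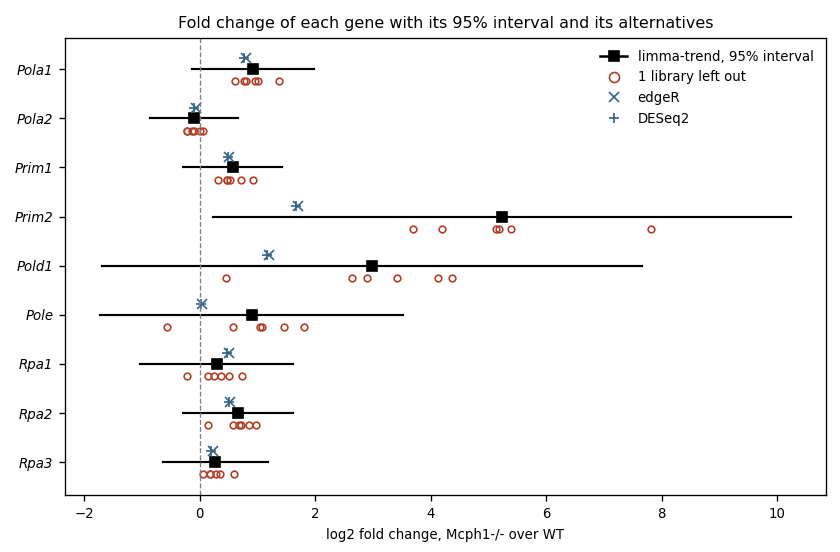
Log2 fold change of each gene, Mcph1-/- over WT (horizontal axis), with its 95% interval from limma-trend (black, n = 3 libraries per genotype), the values with 1 library left out (open circles), and the edgeR and DESeq2 values (crosses). The interval of Prim2 alone excludes 0 before adjustment for multiple tests, and leaving out 1 library takes Pola2, Pole and Rpa1 across 0.

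The 3 subunits of RPA are the large DNA-binding subunit Rpa1, the middle subunit Rpa2, which checkpoint kinases phosphorylate, and the small subunit Rpa3. Rpa2 (ENSMUSG00000028884, chromosome 4, 132768332 to 132778752, plus strand) stood at 2567, 2184 and 2078 in Mcph1-/- and at 1897, 2229 and 696 in WT. The Mcph1-/- libraries lay close together and WT replicate 3 lay far below the rest. The means were 2276 ± 257 in Mcph1-/- and 1608 ± 806 in WT (SD, n = 3). The log2 fold change was 0.66 (SE 0.42; 95% interval -0.29 to 1.62; limma adjusted p = 0.695). It was 0.14 without WT replicate 3. Rpa3 (ENSMUSG00000012483, chromosome 6, 8255936 to 8259173, minus strand) stood at 562.8, 616.1 and 708.9 in Mcph1-/- and at 382.8, 806.7 and 449.4 in WT, and WT replicate 2 was the highest of the 6 libraries. Its log2 fold change was 0.27 (SE 0.39; 95% interval -0.63 to 1.18; limma adjusted p = 0.864). Rpa1 (ENSMUSG00000000751, chromosome 11, 75298166 to 75348324, minus strand) stood at 232.6, 869.5 and 381.2 in Mcph1-/- and at 462.0, 323.5 and 278.4 in WT. Mcph1-/- libraries were both the lowest and the highest of the 6 for Rpa1. Its log2 fold change was 0.30 (SE 0.58; limma adjusted p = 0.904), and -0.22 without Mcph1-/- replicate 2. Its exons share 44 bases with a predicted miRNA gene, Gm47300, on the same strand.

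The promoters of the 3 RPA genes are shown because Rpa2 and Rpa3 share an arrangement that the choice of genes did not use. Each holds a pair of CCAAT boxes on the opposite strand close to the start, beginning 84 and 52 bases before it in Rpa2 and 86 and 55 bases before it in Rpa3. Rpa1 has a CCAAT box on the same strand 42 bases before the start and another 43 bases into the transcript, and Rpa2 has a further one on the opposite strand 231 bases before the start. Each line gives the 150 bases before the RefSeq start (GRCm38.p6), 5′ to 3′ on the gene's strand, with CCAAT boxes in capitals (ATTGG where the box is on the opposite strand). The lines lie on chromosome 4 from 132768210 to 132768359 (plus strand), chromosome 6 from 8259142 to 8259291 (minus strand) and chromosome 11 from 75348384 to 75348533 (minus strand).
Rpa2: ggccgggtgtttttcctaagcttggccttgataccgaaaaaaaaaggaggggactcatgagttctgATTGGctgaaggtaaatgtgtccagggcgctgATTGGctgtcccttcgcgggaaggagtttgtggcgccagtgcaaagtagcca
Rpa3: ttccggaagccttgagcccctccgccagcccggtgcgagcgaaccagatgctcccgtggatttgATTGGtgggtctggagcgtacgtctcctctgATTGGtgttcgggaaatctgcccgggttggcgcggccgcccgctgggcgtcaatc
Rpa1: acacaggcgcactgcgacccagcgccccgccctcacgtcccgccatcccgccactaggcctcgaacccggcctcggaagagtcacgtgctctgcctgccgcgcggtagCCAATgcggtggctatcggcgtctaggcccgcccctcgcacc
At least 1 CCAAT on either strand was found in 5 of the 7 member windows of 300 bases and in 37.4% of all windows, and at least 2 were found in 3 member windows (Rpa1, Rpa2 and Rpa3) and in 11.7% of all windows. GGGCGG, the GC box, was found in 5 member windows and in 35.7% of all windows, and the cell cycle homology region (TTTGAA or TTCGAA) in 0 member windows and in 19.2% of all windows.

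Levels of different genes were compared per kilobase of the principal coding transcript (GENCODE vM21), as normalised read count per kb. Over the 6 libraries Rpa2 stood highest at 1071 ± 358 per kb, followed by Rpa3 at 877 ± 236 and Prim1 at 624 ± 208 (SD, n = 6). These neighbours did not differ beyond their spread: the mean difference was 194 per kb with an SD of 317 across libraries between Rpa2 and Rpa3, and 254 with an SD of 378 between Rpa3 and Prim1. Prim1 was above Pola2 (264 ± 41.4 per kb) in 6 of 6 libraries, and Pola2 was above Pola1 (116 ± 48.7 per kb) in 6 of 6. Prim2 at 108, Rpa1 at 83.6, Pole at 67.3 and Pold1 at 60.2 per kb closed the order, and none of these stood apart from its neighbour beyond the spread. The RPA subunits, which assemble as 1 copy each, had unequal levels per kb. By this measure Rpa2 averaged 12.8 times and Rpa3 10.5 times the level of Rpa1, and each was above Rpa1 in 6 of 6 libraries. With the length of all annotated exons in place of the principal transcript these ratios were 8.53 and 6.80, and Prim2 moved to the 9th place. By that length Pola2 stood at 76.9, Rpa1 at 76.1 and Pola1 at 70.5 per kb. The distance of Pola2 from Pola1 thus depends on the length used. The ratio of Rpa3 to Rpa1 rests largely on the division by length, since their principal transcripts have 670 and 5077 bases. Before that division, Rpa3 was below Rpa1 in Mcph1-/- replicate 2 (616.1 against 869.5) and in WT replicate 1 (382.8 against 462.0). How evenly reads covered the longer transcript was not tested.

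Within the polymerase alpha-primase complex the balance of subunits was even across the Mcph1-/- libraries. Prim2 made up 13.0%, 12.6% and 12.5% of the complex's summed level per kb in Mcph1-/- replicates 1 to 3, against 11.9%, 0.0654% and 0% in WT replicates 1 to 3. Pola2 made up 19.6%, 20.1% and 19.4% in Mcph1-/- and 21.2%, 39.4% and 32.8% in WT. WT replicate 1 resembled the Mcph1-/- libraries in the share of Prim2, whereas its share of Pola1 was 4.80%, against 10.3% to 12.3% in Mcph1-/-. The shares of RPA subunits overlapped between the genotypes, with Rpa2 at 61.5%, 52.5% and 50.3% in Mcph1-/- and at 61.2%, 49.2% and 34.6% in WT. The summed level per kb of the 3 RPA genes was 2292 ± 11.4 in Mcph1-/- and 1772 ± 696 in WT (SD, n = 3), and that of the 4 polymerase alpha-primase genes was 1293 ± 220 in Mcph1-/- and 929 ± 314 in WT. The sums of both complexes overlapped between the genotypes.

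**Figure D3:**
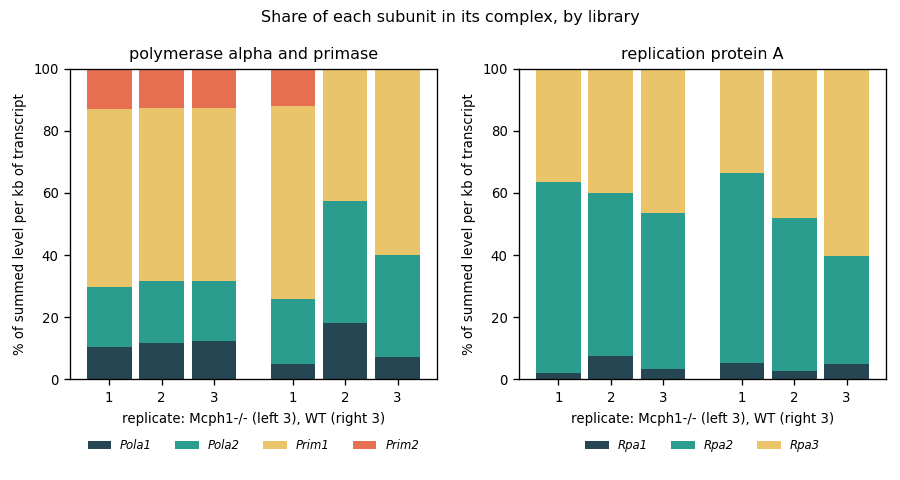
Share of each subunit in the summed level per kb of transcript (vertical axis, percent) of polymerase alpha-primase (left) and RPA (right), by library, with Mcph1-/- replicates 1 to 3 before WT replicates 1 to 3. The 3 Mcph1-/- bars of polymerase alpha-primase are nearly alike, and the Prim2 share is 0.0654% and 0% in WT replicates 2 and 3.

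Low values fell in the WT libraries. Of the 54 values of the 9 genes in 6 libraries, 3 rested on at most 3 reads, 0 of them in Mcph1-/- and 3 in WT. Among the 8570 tested genes whose mean reached 100, the share with at most 3 reads was 1.90% to 3.63% in Mcph1-/- libraries and 4.61% to 5.31% in WT libraries. WT replicate 3 was the lowest library for 4 of the 9 genes and Mcph1-/- replicate 2 the highest for 5. In WT replicate 3, 1 of the 9 genes, Pold1, lay above its own mean of the 6 log2 values, and in Mcph1-/- replicate 2 all 9 did. The part of depth in these values was not tested. The 3 other genes whose log2 values followed the mean standardised profile of the 9 genes most closely over the 6 libraries were Gm10131, Pdss1 and Rpl15-ps6, at a Pearson correlation of 0.997, 0.991 and 0.990, given as a description since 25 genes were above 0.95.

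Summed values of lists for dividing cells, erythroid cells, neutrophils and monocytes stood apart between the genotypes. All 19 tested genes of a mitosis list had a positive log2 fold change, with summed values of 14240.5 to 17824 in Mcph1-/- and 5429 to 7767 in WT; 0 of them were at 0 in Mcph1-/- libraries and up to 3 in a WT library. Of 12 erythroid markers 8 were positive, with sums of 31792 to 40074 in Mcph1-/- and 4770.1 to 22482 in WT and up to 1 marker at 0 in a Mcph1-/- library and up to 2 in a WT library. The erythroid list did not move as a whole. All Mcph1-/- libraries lay above all WT libraries for 5 of the 12 markers, against 7.40% of all tested genes. They lay below for 3 of the 12, against 6.80%. Of 7 neutrophil and granule markers 1 was positive, with sums of 3287 to 18724 in Mcph1-/- and 58564 to 67847 in WT, and 1 of them was at 0 in Mcph1-/- replicate 2. Of 3 monocyte and macrophage markers 0 were positive, with sums of 4772 to 5146 in Mcph1-/- and 8071 to 12984.5 in WT, and 1 of them was at 0 in WT replicate 1. The part of these cells in the values of the polymerase, primase and RPA genes was not tested.

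The accessory subunits of polymerases delta and epsilon showed no common direction. Of 6 tested genes 3 were positive and 3 negative, 0 passed, and the median log2 fold change was 0.24, or 0.16 without WT replicate 3. Pole3, a histone-fold subunit of polymerase epsilon, stood at 612.1, 811.3 and 998.2 in Mcph1-/- and at 446.8, 59.8 and 683.3 in WT (log2 fold change 1.58, SE 0.85, and 0.52 without WT replicate 2; limma adjusted p = 0.666). Pold4, the smallest subunit of polymerase delta, stood at 520.0, 681.7 and 671.4 in Mcph1-/- and at 495.6, 378.1 and 393.8 in WT (log2 fold change 0.56, SE 0.36, limma adjusted p = 0.696). It was the 1 gene of the 6 whose groups did not overlap, while 7.40% of all tested genes had all Mcph1-/- libraries above all WT libraries. Its exons overlap another coding gene on the same strand. The log2 fold change was 0.55 (SE 0.43) for Pold3 and -1.10 (SE 1.07) for Pole2, the B subunit of polymerase epsilon, and Pole2 also shares exonic sequence with another gene.

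Genes that act with primase and RPA did not pass either. CST is an RPA-like complex that works with polymerase alpha-primase at telomeres. All 4 genes of CST and of the primase-polymerase Primpol were positive, and 0 passed. In 1 of the 4 all Mcph1-/- libraries lay above all WT libraries, against 7.40% of all tested genes. The CST genes Ctc1 and Stn1 each had 0 reads in Mcph1-/- replicate 3 and WT replicate 1, and Primpol had 1 read in WT replicate 2. The median log2 fold change of the 4 genes was 1.37, but 0.91 by edgeR and 0.87 by DESeq2. With 1 library left out it ran from 0.47 (without WT replicate 1) to 2.01 (without WT replicate 3), and it was 0.52 without Mcph1-/- replicate 2. Of 6 tested factors of RPA import, binding and turnover 3 were positive, with a median of -0.19 and 0 passed. That median lay near 0 under several alternatives, at -0.05 by edgeR and -0.0049 without WT replicate 2, and turned to 0.07 without Mcph1-/- replicate 2, while it was -0.41 for genes with a mean of at least 50. Etaa1, an RPA-binding activator of the checkpoint kinase ATR, stood at 309.2, 132.9 and 62.5 in Mcph1-/- and at 129.0, 12.4 and 0 in WT (log2 fold change 3.52, SE 1.96, and 1.86 by edgeR; limma adjusted p = 0.667). Atrip, the partner of ATR that binds RPA-coated DNA, stood at 1582, 865 and 1424 in Mcph1-/- and at 1613, 1598 and 1774 in WT (log2 fold change -0.41, SE 0.28; limma adjusted p = 0.706), and its exons overlap Trex1.

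At the fork itself, 9 of 13 tested genes of fork assembly and protection were positive. Their median was 0.36 on the log2 scale, and 0 passed. It was 0.12 by edgeR and 0.09 by DESeq2, and with 1 library left out it ran from 0.06 (without WT replicate 2) to 1.20 (without WT replicate 3). Tipin, which joins with Timeless to couple helicase and polymerase and binds RPA, had the smallest p of this list. It stood at 1675, 1443 and 2074 in Mcph1-/- and at 943, 979 and 737 in WT (log2 fold change 0.96, SE 0.26, limma adjusted p = 0.551). Its groups did not overlap, while 7.40% of all tested genes had all Mcph1-/- libraries above all WT libraries. By DESeq2 alone Tipin passed (DESeq2 adjusted p = 0.010), a test that called 120 genes higher and 118 lower over all tested genes. Clspn, the fork mediator claspin, stood at 219.8, 59.9 and 60.7 in Mcph1-/- and at 100.9, 0 and 0 in WT (log2 fold change 4.33, SE 2.14, and 1.78 by edgeR; limma adjusted p = 0.662). The median log2 fold change was 0.82 for 16 licensing and MCM helicase genes, 14 of them positive, and 0.66 for 14 clamp and fork maturation genes, 11 of them positive, with 0 passed in each; the second was 0.35 by edgeR and 0.32 by DESeq2. The difference between these lists and the 9 genes was not tested.

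Genes of DNA polymerases outside the replication fork had larger median within-genotype SDs than the 9 replicative genes. Of 7 translesion polymerase genes 5 were positive (median log2 fold change 1.41, median within-genotype SD 2.85 on the log2 scale), and of 4 repair and mitochondrial polymerase genes 2 were (median 0.86, SD 3.68), against an SD of 0.65 for the 9 replicative genes. Over all tested genes the median SD was 0.88, and among the 9 genes it was 0.25 for Pola2 and 3.19 for Prim2. The part of expression level in these SDs was not tested. No translesion, repair or mitochondrial polymerase gene passed. The translesion median was 0.33 with a pseudocount of 16, 0.25 by edgeR and 0.21 by DESeq2, and it was 0.30 without Mcph1-/- replicate 1, -0.27 without WT replicate 1 and -0.48 without WT replicate 2. The median of the repair and mitochondrial genes was 0.44 with a pseudocount of 16, 0.04 by edgeR and 0.0079 by DESeq2. With 1 library left out it ran from -0.31 (without WT replicate 2) to 1.77 (without WT replicate 1), and it was also negative, at -0.05, without Mcph1-/- replicate 2. Neither list therefore had a direction that held over the alternatives. Among E2F and pocket protein regulators, 5 of 7 tested genes were positive with a median of 0.35, which ran from 0.20 (without Mcph1-/- replicate 2) to 0.63 (without Mcph1-/- replicate 1). Rbl1, the pocket protein p107, stood at 33.8, 192.8 and 221.4 in Mcph1-/- and at 50.97, 0 and 0 in WT (log2 fold change 4.94, SE 2.03, and 3.15 by edgeR; limma adjusted p = 0.642). The list named 15 regulators, of which 7 were in the expression table, and E2f1, E2f2 and E2f3 were not.

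**Figure D4:**
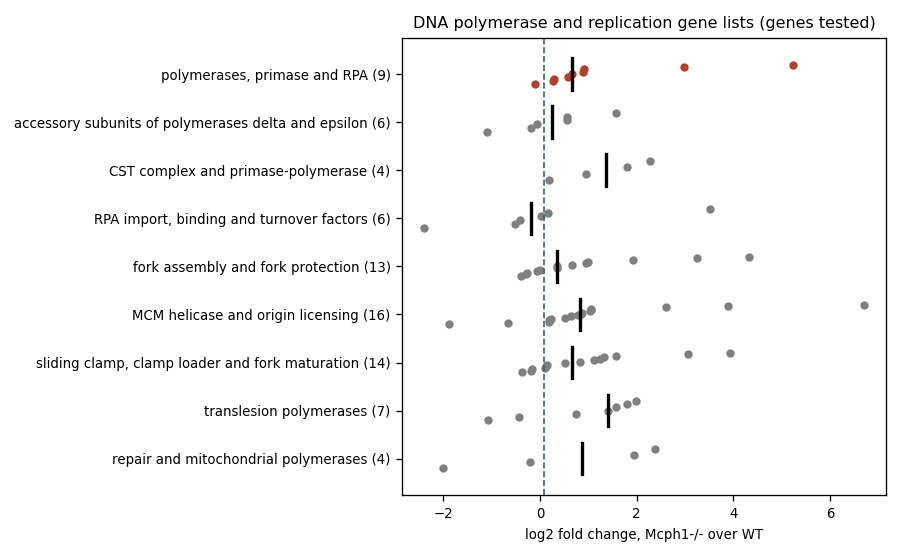
Log2 fold change, Mcph1-/- over WT (horizontal axis), of each tested gene in 9 lists of polymerase and replication genes; points are genes, black bars list medians, and the dashed line the median of all tested genes (0.08). The 9 polymerase, primase and RPA genes (red) have a median of 0.66, and their 2 rightmost points are Pold1 and Prim2.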

How the data were processed

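RNA-seq libraries were sequenced with paired 150-bp reads, per the labels' protocols. Trim Galore 0.6.6, HISAT2, featureCounts, DESeq2 and mm10 are named in the submitters' processing notes, with no role or order. No annotation release or strand setting is stated. Chromatin accessibility was not analysed here.

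The deposited values are a signal: the authors' read counts over a library's size factor. The values themselves show this, since 100% were whole multiples of 1 read within 0.001 reads, so whole reads were recovered. All listed genes have reads in 4 or more of the 6 libraries. Floors, the upper limits given for genes without a read in a library, cover counting error only. Intervals come from limma-trend and reflect the spread between libraries.

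Genes with a mean of at least 10 (10846) were tested with limma-trend (limma 3.58.1) on log2(value + 1) for genotype alone, with Benjamini-Hochberg adjustment at 0.05. The added 1 understates changes of genes that are low throughout, whereas 1 library near 0 among high ones can put the fold change above the ratio of the means. Alternatives were a pseudocount of 16, other filters, TMM scaling, limma-voom, edgeR 4.0.16 and DESeq2 1.42.0 on the recovered reads, a replicate block and each library left out. The tests were tried on simulated reads. Positions come from GENCODE vM21 (mm10; 96.2% of genes matched) and promoters from RefSeq (GRCm38.p6).

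The members, lists and test were chosen with earlier results of these data known. Named were all members, up to 4 genes per list with the smallest p, Mcph1, and the 3 genes closest to the members' mean profile. Cell type markers, partner genes and overlapping genes are named outside this rule. Slamf1 and the 4 called genes were named after their values were seen. A gene that the rule names is not reported here.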

Additional observations from a re-analysis of the deposited data

How the results depend on the processing

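The count of members past the threshold was 0 in all 14 alternatives, and their median log2 fold change ranged from 0.48 (DESeq2) to 0.70 (limma-voom) over the alternatives that kept all libraries and from 0.17 (without WT replicate 3) to 0.86 (without WT replicate 1) with 1 library left out. Over all tested genes, the main 1 higher and 3 lower became 0 and 2 by edgeR (593 genes at an unadjusted p under 0.05), 120 and 118 by DESeq2, and 1 and 0 by limma-voom, and 0 to 2 higher and 1 to 4 lower with 1 library left out; the cause was not tested. Leaving out 1 library turned the sign of Pola2 (0.051 without Mcph1-/- replicate 3 and 0.0072 without WT replicate 2, in a range of -0.22 to 0.051), Pole (-0.57 without WT replicate 3, in a range of -0.57 to 1.80) and Rpa1 (-0.22 without Mcph1-/- replicate 2, in a range of -0.22 to 0.73). The other 6 members kept a positive log2 fold change in all 14. TMM scaling put the median of all tested genes at 0.11 in place of 0.08.

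Same-numbered libraries did not deviate together (correlations of -0.014, 0.018 and -0.030 for numbers 1, 2 and 3), so the numbers give no pairing. With the replicate number as a block, 1 gene was higher and 2 were lower, 0 members passed, and the members' median was 0.66. In WT, Prim2 and Pold1 rested on 0 or 1 read in some libraries, and the part of depth in this was not tested.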

Other observations

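The steadiness of the polymerase alpha-primase balance in the Mcph1-/- libraries was noticed after the values were seen. Across Mcph1-/- replicates 1 to 3 the share of each subunit per kb had an SD of 0.28 (Prim2) to 1.02 (Pola1) percentage points, against 6.87 (Prim2) to 10.8 (Prim1) in WT. The Pola2 share was lower in every Mcph1-/- library (19.4% to 20.1%) than in every WT library (21.2% to 39.4%), although Pola2 itself had the log2 fold change nearest to 0 of the 9 genes (-0.10). The shares of a complex depend on one another, and Prim2 made up 0.0654% and 0% in WT replicates 2 and 3. The separation of the Pola2 share was picked after the values were seen and was not tested. How often the shares of other complexes separate was not computed. The summed RPA level per kb was 2302, 2295 and 2279.6 in Mcph1-/- replicates 1 to 3 and 1709, 2497 and 1109.8 in WT replicates 1 to 3. These differences in spread were not tested, and 3 libraries per genotype allow no firm estimate of an SD.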
